A study of Mus musculus with 6 samples.

Results

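The genes described here are the mitochondrial solute carriers of the Slc25 family, without Slc25a14 and Slc25a20, together with both subunits of the mitochondrial pyruvate carrier (Mpc1, Mpc2) and the 3 voltage-dependent anion channels of the outer membrane (Vdac1, Vdac2, Vdac3). Membership was set by gene symbol, through the accession of each array probe, which gave 50 genes with 83 probes among 23462 genes and 56605 probes. The set itself was chosen with earlier results of these data known. RNA was measured on 6 Agilent arrays of BV2 cells, an immortalized mouse microglial line, all after LPS (lipopolysaccharide), a bacterial membrane component that provokes an inflammatory response. The 3 control arrays hold cells without PGC-1α overexpression, and the other 3 hold cells with it. The cell culture methods describe a lentiviral vector with a ubiquitin promoter that carried the FLAG-tagged PGC-1α coding sequence, and a negative-control virus. Overexpressing cells were selected with puromycin, and the dose of LPS for BV2 cells was 500 ng/ml over 6 h. All of this is given there without reference to the arrays. The sample titles say only with or without PGC-1α, so whether the control arrays hold virus-treated cells is not known. Nothing in the labels says whether the arrays of a group came from separate cultures, so p-values measure the spread between these arrays only.

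Small solutes reach the mitochondrial matrix through the inner membrane on carriers, most of which belong to the Slc25 family and exchange one solute for another. They export ATP for ADP, import phosphate and pyruvate, move citrate, malate and amino acids between matrix and cytosol, and deliver iron, glutathione and cofactors, while the Vdac proteins form the pores of the outer membrane. PGC-1α is a coactivator that binds no DNA by itself and acts through partners such as nuclear receptors of the ERR group, NRF1 and ETS-type GABPA, and it is known for raising mitochondrial genes in muscle and brown fat.

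Promoter sequence in the RefSeq table of GRCm38.p6, from 250 bases before to 50 bases after a start site, was found for 37 of the 50 genes, in 47 windows. Words bound by these partners, and the cAMP response element, which CREB and related factors bind, were searched on both strands. The extended ERR element TCAAGGTCA was in 0 of the 47 windows and in 0.423% of all 32851 windows, and the NRF1 core CGCATGCG was in 0 and in 1.87%. The shorter nuclear receptor element AAGGTCA, which is contained in the ERR element, was in windows of Slc25a34 and Vdac1, and in 4.72% of all windows. The ETS core CCGGAAG was in 8 windows, those of Mpc1, Slc25a3, Slc25a4, Slc25a17, Slc25a25, Slc25a38, Slc25a54 and Vdac1, and in 8.86% of all windows. The cAMP response element TGACGTCA was in a window of Slc25a25 and one of Slc25a36, and in 1.79% of all windows. By gene, the ETS core was in 21.6% of the 37 members and 9.93% of all genes. The nuclear receptor element was in 5.41% and 5.38%, and the cAMP response element in 5.41% and 2.03%. Median GC content of the 250 bases before the start site was 59.6% in member windows and 52.4% in all windows. Its part in these shares was not tested.

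For 4 genes whose array values are given below, the 250 bases before 1 start site are printed 5′ to 3′ on the strand of the gene, with any of these words in capitals. Slc25a34 and Slc25a25 were higher in the overexpressing cells, Slc25a40 fell most, and Vdac1 is a channel whose call turned on the scaling. The stretches were picked by hand, and for Slc25a25 the start site shown is the one with the cAMP response element. Slc25a41 and Slc25a21, which rose more than Slc25a25, are not among the genes with a word. A link between the words and the fold changes was not tested. The stretches are chr4:141623835-141624084 (minus strand) for Slc25a34, chr2:32424067-32424316 (minus strand, the most downstream of 3 start sites) for Slc25a25, chr11:52360601-52360850 (plus strand, the upstream of 2 start sites) for Vdac1 and chr5:8422588-8422837 (plus strand) for Slc25a40.
Slc25a34: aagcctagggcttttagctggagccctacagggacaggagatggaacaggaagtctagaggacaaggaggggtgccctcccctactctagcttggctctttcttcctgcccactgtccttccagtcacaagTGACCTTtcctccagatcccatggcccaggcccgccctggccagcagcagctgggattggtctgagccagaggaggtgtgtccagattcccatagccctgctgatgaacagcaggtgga
Slc25a25: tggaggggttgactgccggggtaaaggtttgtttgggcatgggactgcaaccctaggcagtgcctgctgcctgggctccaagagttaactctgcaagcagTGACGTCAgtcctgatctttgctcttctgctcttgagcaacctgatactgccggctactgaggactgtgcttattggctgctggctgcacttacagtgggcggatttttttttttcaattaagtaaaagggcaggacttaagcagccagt
Vdac1: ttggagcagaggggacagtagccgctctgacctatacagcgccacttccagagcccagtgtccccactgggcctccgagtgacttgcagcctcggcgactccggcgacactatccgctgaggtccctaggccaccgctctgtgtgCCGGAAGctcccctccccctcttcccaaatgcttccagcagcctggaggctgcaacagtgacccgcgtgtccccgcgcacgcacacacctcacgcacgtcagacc
Slc25a40: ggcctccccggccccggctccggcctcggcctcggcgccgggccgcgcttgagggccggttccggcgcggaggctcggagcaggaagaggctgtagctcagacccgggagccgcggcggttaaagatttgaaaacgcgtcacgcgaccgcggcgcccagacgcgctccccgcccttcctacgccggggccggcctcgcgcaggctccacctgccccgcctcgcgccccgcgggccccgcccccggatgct
The capitals mark the nuclear receptor element on the opposite strand in Slc25a34, the cAMP response element in Slc25a25 and the ETS core in Vdac1, and the Slc25a40 stretch held none of the words, with a GC content of 78.0%. The nuclear receptor element of Vdac1 lies before its other start site, and the ETS core of Slc25a25 lies after its most upstream start site, so neither is in the stretches shown.

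Each array carried 59305 spots other than controls, of which 41122 to 45165 were well above background, and its 75th percentile of intensity lay between 1617 and 1893 in the controls and between 856 and 1268 in the overexpressing cells. Levels are given as log2 intensity minus this percentile (the scaled level), so that 0 is the 75th percentile of an array and differences between groups are log2 fold changes, overexpression minus control. With this scaling the median log2 fold change of the 17062 genes tested was 0.23, and with quantile normalization, which gives all arrays the same distribution, it was 0.03. The targeted gene, Ppargc1a, had 2 probes near background. One had scaled levels of -6.21, -6.37 and -7.71 in the controls and of -5.70, -5.28 and -5.90 in the overexpressing cells, a log2 fold change of 1.14 ± 0.41 (SE) that missed the threshold in a limma fit without a filter on dim probes (adjusted p = 0.0676); the other gave 0.26 ± 0.29 (adjusted p = 0.491). Whether these probes lie in the coding sequence that the virus carried is not known from the files. In the fit described below, 36.9% of all genes tested were higher in the overexpressing cells and 19.6% lower. With quantile normalization these shares were 21.7% and 20.9%. Of 10 microglia and macrophage markers 9 were tested, with Cx3cr1 not well above background on any array, and 5 (55.6%) were higher. With quantile normalization 0 were higher and 1 (11.1%) was lower. Of 4 fibroblast markers 3 (75%) were higher and 1 (25%) lower, or 2 and 1 with quantile normalization. Of 3 tested astrocyte markers Aqp4 (0.87) and Aldh1l1 (0.79) were higher on both scalings, of 4 tested neuron markers 2 were higher and 1 lower (1 and 1 with quantile normalization), and none of 4 oligodendrocyte markers passed on either scaling in limma's test; their part in the results below was not tested.

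Of the 50 carrier genes, 41 had a probe that was measured on 2 or more arrays per group and stood well above background throughout a group, and these were tested within the fit across all genes. In limma's test with Benjamini-Hochberg adjustment, 16 of the 41 were higher in the overexpressing cells and 8 were lower at an adjusted p under 0.05, while 17 did not pass. As shares of those tested, 39.0% were higher and 19.5% lower, against 36.9% and 19.6% of all genes tested. Their median log2 fold change was 0.21, which is 0.02 below the median of all genes. With quantile normalization 7 were higher and 6 lower, 17.1% and 14.6% against 21.7% and 20.9% of all genes, and the median was again 0.02 below that of all genes. The shares of the family lay near or below those of all genes, while its members ranged from -1.57 to 2.15. In RNA of whole cultures, a smaller share of cells with a transcript and less of it per cell cannot be told apart.

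Among the 39 members with a value on every array, the groups did not overlap in 19 higher and 12 lower members, 48.7% and 30.8% against 42.6% and 22.9% of all genes. Across 6 combinations of scaling and background correction, the authors' own normalized values among them, 7 members were called higher each time, namely Slc25a1, Slc25a21, Slc25a25, Slc25a34, Slc25a38, Slc25a41 and Slc25a48, and 4 were called lower each time, namely Slc25a13, Slc25a32, Slc25a40 and Slc25a46. These were 17.1% and 9.76% of the members tested, against 15.1% and 14.3% of all genes. All but Slc25a34 also kept the call whichever array was left out, and the share of all genes that did so is not given here. The arrays came from 2 slides that held both groups. All 24 called members had the same sign on each slide, but the calls came from these same arrays, so this is no separate support. With the slide as a block Slc25a12 and Slc25a47 were called higher in addition, and no other call of a member changed. On slide 1 alone, with 2 arrays per group, 15 were higher and 7 lower of 45 tested. The shares of all genes in that fit are not given here, so these counts show no trait of the carriers.

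**Figure D1:**
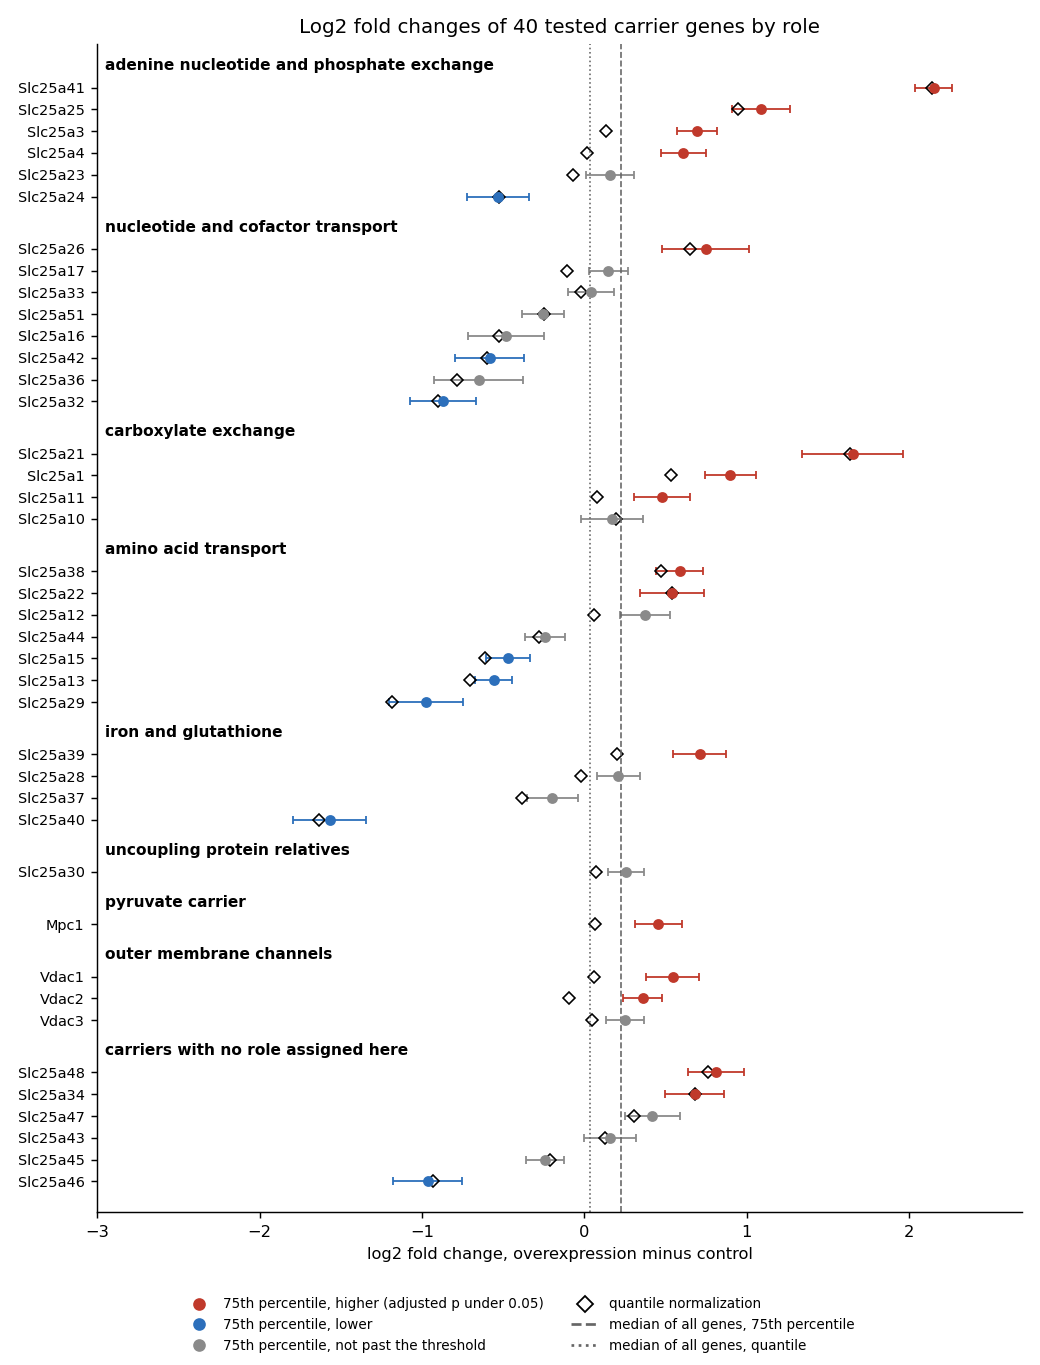
Log2 fold change, overexpression minus control, of 40 of the 41 tested genes grouped by role. Circles are the 75th percentile scaling with bars of 1 standard error, coloured by the call at an adjusted p under 0.05, diamonds are quantile normalization, and vertical lines are the medians of all genes (0.23 and 0.03); Slc25a41 lies at 2.15 and Slc25a40 at -1.57 with diamonds close by, whereas the diamonds of Slc25a3, Slc25a4, Vdac1 and Vdac2 lie near 0.

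The carriers that exchange adenine nucleotides and phosphate supply ADP and phosphate to ATP synthase and bring ATP out. Of 8 such genes 6 were tested, 4 were higher and 1 was lower, 66.7% and 16.7% against 36.9% and 19.6% of all genes. With quantile normalization 2 were higher and 0 lower, 33.3% and 0% against 21.7% and 20.9%. The median log2 fold change was 0.42 above that of all genes, which became 0.04 with quantile normalization. The largest rise of any member was that of Slc25a41, an ATP-magnesium/phosphate carrier that lacks the calcium-binding domain of its relatives. Its scaled level was -1.48, -1.37 and -1.42 in the controls and 0.73, 0.74 and 0.72 in the overexpressing cells. The groups were far apart relative to their spread, a log2 fold change of 2.15 ± 0.11 (4.45-fold, limma adjusted p = 2.53e-05), and the value was 2.14 with quantile normalization. A second, dimmer probe of Slc25a41 also rose, by 0.68 ± 0.14 (adjusted p over all probes = 0.00475), so the probes shared the direction and not the size.

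Slc25a25, a calcium-regulated ATP-magnesium/phosphate carrier, had scaled levels of 1.19, 0.89 and 0.70 in the controls and of 1.98, 2.27 and 1.81 in the overexpressing cells. It rose 2.13-fold (log2 fold change 1.09 ± 0.18, limma adjusted p = 0.00195), and all 4 of its probes rose, by 0.99 to 1.12. Slc25a24, another calcium-regulated carrier of this kind, went the other way, with 0.16, 0.21 and 0.22 in the controls against 0.07, -0.70 and -0.37. It fell by 0.53 on the log2 scale (SE 0.19, adjusted p = 0.0433), but the fall did not pass with quantile normalization (adjusted p = 0.0520), and with 1 array left out the adjusted p reached 0.106. The third, Slc25a23, had 2.19, 1.92 and 1.73 against 2.03, 2.21 and 2.07, so that the groups overlapped (0.16 ± 0.15, adjusted p = 0.389).

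Slc25a3, the phosphate carrier, and Slc25a4, the ADP/ATP carrier of heart and muscle, are among the bright probes of the array. The scaled level of Slc25a3 was 3.92, 3.82 and 3.99 in the controls and 4.49, 4.71 and 4.60 in the overexpressing cells (log2 fold change 0.69 ± 0.12, limma adjusted p = 0.00286). That of Slc25a4 was 4.26, 4.34 and 4.32 against 4.71, 5.13 and 4.90 (0.61 ± 0.14, adjusted p = 0.00775). Both rose without overlap of the groups under the 75th percentile scaling, but after quantile normalization the differences were 0.13 (adjusted p = 0.396) and 0.02 (adjusted p = 0.923). The second probe of Slc25a4 rose by 0.67, and that of Slc25a3 had 0.28 and did not pass (adjusted p over all probes = 0.0699).

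Slc25a5, the ADP/ATP carrier found in most tissues, had a single probe whose spot was marked as an outlier on 3 of the 6 arrays, so it was not tested. With those spots kept, an alternative chosen after seeing the data, its scaled level was 3.93, 3.75 and 3.89 in the controls and 4.53, 4.39 and 4.36 in the overexpressing cells, which gave 0.57 ± 0.12 (adjusted p = 0.00587) and, with quantile normalization, 0.00 (adjusted p = 0.983). Slc25a5 thus had the same pattern as Slc25a3 and Slc25a4 on the 2 scalings. Slc25a31, the ADP/ATP carrier of the testis, was not well above background on any array.

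**Figure D2:**
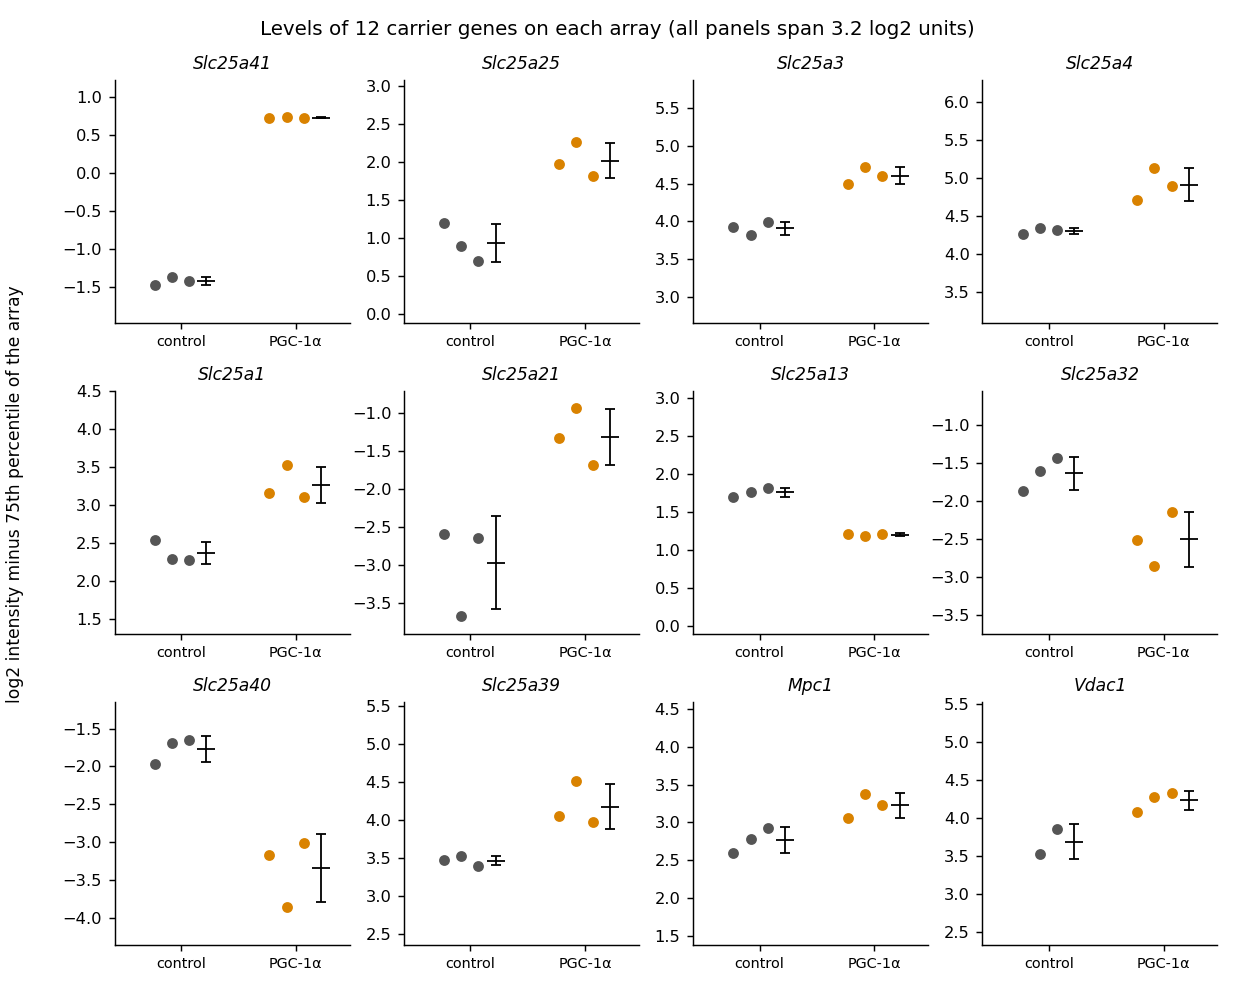
Scaled level (log2 intensity minus the 75th percentile of the array, vertical axis) of 12 members on each of the 3 control and 3 overexpression arrays. Points are arrays, bars are the mean and SD, panels have different offsets and the same span, and Vdac1 lacks 1 control value; the groups do not overlap in any panel, with the widest gaps for Slc25a41, whose overexpression arrays lie at 0.72 to 0.74, and Slc25a40, whose lie at -3.85 to -3.00.

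Carriers of carboxylates link the tricarboxylic acid cycle to the cytosol. All 4 were tested, and 3 were higher and 0 lower, 75% and 0% against 36.9% and 19.6% of all genes. With quantile normalization 2 were higher and 0 lower, 50% and 0% against 21.7% and 20.9%. The median was 0.46 above that of all genes and 0.33 above it with quantile normalization. Slc25a21, which exchanges 2-oxoadipate and other oxodicarboxylates, had scaled levels of -2.59, -3.68 and -2.64 in the controls and of -1.33, -0.93 and -1.68 in the overexpressing cells. It rose 3.15-fold (log2 fold change 1.65 ± 0.31, limma adjusted p = 0.00347) even though its control arrays were spread over more than 1 log2 unit, and its other probe was not well above background on any array. The difference was 2.00 on slide 1 and 0.96 between the 2 arrays of slide 2.

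Slc25a1, the citrate carrier that feeds cytosolic acetyl-CoA synthesis, had 2.54, 2.29 and 2.28 in the controls and 3.16, 3.54 and 3.11 in the overexpressing cells. It rose 1.87-fold (0.90 ± 0.16, adjusted p = 0.00262), its second probe rose by 0.77, and with quantile normalization the difference was 0.54 (adjusted p = 0.0190). Slc25a11, the malate/oxoglutarate carrier of the malate-aspartate shuttle, had 2.89, 2.76 and 2.61 against 3.25, 3.52 and 2.92. That difference of 0.48 ± 0.18 passed (adjusted p = 0.0447) but was 0.08 with quantile normalization (adjusted p = 0.726), the other probe gave 0.05, and with 1 array left out the adjusted p reached 0.138. Slc25a10, the dicarboxylate carrier, had -0.62, -0.89 and -1.07 against -0.92, -0.33 and -0.83, so that the groups overlapped (0.17 ± 0.19, adjusted p = 0.469).

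Amino acid carriers moved in both directions. Of 9 genes 7 were tested, 2 were higher and 3 lower, 28.6% and 42.9% against 36.9% and 19.6% of all genes. The median of the 7 was 0.47 below that of all genes and 0.31 below it with quantile normalization. The aspartate/glutamate carriers, which exchange aspartate for glutamate in the malate-aspartate shuttle, differed from each other. Slc25a13 (citrin) had scaled levels of 1.69, 1.77 and 1.81 in the controls and of 1.21, 1.18 and 1.21 in the overexpressing cells and fell by 0.56 on the log2 scale (SE 0.11, limma adjusted p = 0.00462). Slc25a12 (aralar) had 2.52, 2.40 and 2.12 against 2.61, 2.92 and 2.63 (0.38 ± 0.15, adjusted p = 0.0667). All 3 overexpression values of Slc25a12 lay above the controls, but the difference did not pass and was 0.06 with quantile normalization, while its 3 probes gave 0.21 to 0.38. With the slide as a block it passed (adjusted p = 0.0347). For Slc25a13 quantile normalization gave -0.71 (adjusted p = 0.00215). The difference between the fold changes of the pair was not tested.

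The largest fall in this group was that of Slc25a29, a carrier of basic amino acids, with -4.31, -4.58 and -4.82 in the controls and -5.58, -5.10 and -5.95 in the overexpressing cells. The fall of 0.97 (SE 0.23, adjusted p = 0.00840) rested on a dim probe, and when normexp replaced the scanner's background correction before the same scaling, the difference was -0.02 (adjusted p = 0.922). Slc25a15, the ornithine carrier of the urea cycle, fell by 0.47 (SE 0.14, adjusted p = 0.0197), also on a dim probe, and came to 0.02 with that background correction. Slc25a38, which brings in glycine for heme synthesis, had 0.88, 1.01 and 0.80 against 1.39, 1.72 and 1.35. It rose by 0.59 ± 0.14 (adjusted p = 0.00982) and by 0.47 with quantile normalization (adjusted p = 0.0335).

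Of the remaining amino acid carriers, Slc25a22, a glutamate carrier, rose by 0.54 ± 0.20 (adjusted p = 0.0453) with the probe that stood for it, but its other probes gave 0.06 and -0.01. The call was lost with quantile normalization (0.54, adjusted p = 0.0737), and with 1 array left out the adjusted p reached 0.152. Slc25a44, a carrier of branched-chain amino acids, did not pass (-0.24 ± 0.12, adjusted p = 0.121). Slc25a2 was not well above background on any array, and Slc25a18, the second glutamate carrier, was so on 4 of 6 arrays and was not tested.

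Among carriers of nucleotides and cofactors most did not pass the test. Of 9 genes, all tested, 1 was higher, 2 were lower and 6 did not pass. The shares were 11.1% higher and 22.2% lower, against 36.9% and 19.6% of all genes. With quantile normalization 0 were higher and 1 was lower, 0% and 11.1% against 21.7% and 20.9%. The median was 0.48 below that of all genes and 0.28 below it with quantile normalization. Slc25a32, which transports folate and FAD, had -1.87, -1.60 and -1.43 in the controls and -2.51, -2.86 and -2.14 in the overexpressing cells. It fell by 0.87 (SE 0.20, limma adjusted p = 0.00807) without overlap of the groups. Its 3 probes disagreed: a second fell by 2.05 (adjusted p over all probes = 0.00103) and the third gave 0.11 (adjusted p = 0.690).

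Slc25a26, the carrier of S-adenosylmethionine, had 0.28, 0.78 and 1.07 against 1.20, 1.19 and 1.98. Its difference of 0.75 ± 0.27 passed narrowly (adjusted p = 0.0424), but the other 2 probes gave 0.06 and 0.27, quantile normalization gave 0.65 (adjusted p = 0.0717), and with 1 array left out the adjusted p reached 0.135. Slc25a42, a coenzyme A carrier, fell by 0.58 (SE 0.21, adjusted p = 0.0448) and missed the threshold with quantile normalization. Slc25a36 and Slc25a33, carriers of pyrimidine nucleotides, gave -0.65 ± 0.27 (adjusted p = 0.0729) and 0.04 ± 0.14 (adjusted p = 0.822). Slc25a16 gave -0.48, Slc25a51, the NAD carrier, -0.26 and the peroxisomal Slc25a17 0.15, and none of these 3 passed.

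Iron and glutathione carriers serve heme and iron-sulfur cluster assembly and protect the matrix from oxidants. All 4 were tested, with 1 higher and 1 lower, 25% each, against 36.9% higher and 19.6% lower among all genes. The pair of glutathione carriers moved in opposite directions. Slc25a40 had scaled levels of -1.97, -1.69 and -1.65 in the controls and of -3.16, -3.85 and -3.00 in the overexpressing cells, the lowest log2 fold change of any tested member (-1.57 ± 0.22, limma adjusted p = 0.00118). Its level was 2.96-fold higher in the controls, all 3 of its probes fell, by 0.98 to 1.57, and quantile normalization gave -1.64. Slc25a39 had 3.48, 3.52 and 3.40 against 4.05, 4.51 and 3.97, a rise of 0.71 ± 0.16 (adjusted p = 0.00767) that both probes shared and that was 0.20 with quantile normalization (adjusted p = 0.287).

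The iron carriers, the mitoferrins, did not pass with the probes that stood for them. Slc25a37 (mitoferrin 1) had 2.08, 1.87 and 1.71 in the controls and 1.94, 1.53 and 1.60 in the overexpressing cells (-0.20 ± 0.16, adjusted p = 0.320). Its other 2 probes rose, by 0.65 (adjusted p over all probes = 0.00646) and 0.38 (adjusted p = 0.0470), and the mean of its probes gave 0.28 (adjusted p = 0.0848). Slc25a28 (mitoferrin 2) had 1.95, 1.93 and 2.02 against 2.14, 2.03 and 2.36 (0.21 ± 0.13, adjusted p = 0.199), close to the median of all genes.

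The pyruvate carrier needs both Mpc1 and Mpc2. Mpc1 had scaled levels of 2.59, 2.78 and 2.93 in the controls and of 3.06, 3.38 and 3.24 in the overexpressing cells, a rise of 0.46 ± 0.14 (limma adjusted p = 0.0270) that its second probe (0.23) did not share at the threshold and that was 0.07 with quantile normalization. Mpc2 lacked a value on 2 arrays because of outlier spots and was not tested. With those spots kept it had 1.66, 2.01 and 2.24 against 1.97, 2.41 and 2.43 (0.30 ± 0.19, adjusted p = 0.214), and the groups overlapped.

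The outer membrane channels conduct metabolites and ATP between the cytosol and the space between the membranes. Vdac1, which had 1 control value missing, had 3.53 and 3.85 in the controls and 4.09, 4.28 and 4.34 in the overexpressing cells (0.54 ± 0.16, limma adjusted p = 0.0270). Vdac2 had 3.30, 3.36 and 3.41 against 3.81, 3.61 and 3.74 (0.36 ± 0.12, adjusted p = 0.0322). Both were called higher, but quantile normalization gave 0.06 for Vdac1 and -0.10 for Vdac2, so the direction of Vdac2 turned with the scaling. Vdac3 had 1.75, 1.82 and 1.89 against 2.11, 2.03 and 2.07; its groups did not overlap, yet the difference was 0.25 ± 0.12 (adjusted p = 0.0922), close to the median of all genes, and 0.05 with quantile normalization. With 1 array left out the adjusted p reached 0.182 for Vdac1 and 0.116 for Vdac2.

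Among the carriers with no role assigned here, 6 of 9 were tested. Of these 2 were higher and 1 was lower, 33.3% and 16.7% against 36.9% and 19.6% of all genes. Slc25a48 had 0.15, 0.19 and 0.18 in the controls and 1.02, 1.30 and 0.64 in the overexpressing cells, a rise of 0.81 ± 0.17 (1.75-fold, limma adjusted p = 0.00564) that was 0.76 with quantile normalization. Slc25a34, the gene with the nuclear receptor element printed above, had -0.48, -0.40 and -0.61 against 0.13, 0.56 and -0.13 (0.68 ± 0.18, adjusted p = 0.0146). The groups did not overlap in either gene, though without control replicate 3 the adjusted p of Slc25a34 was 0.0528. Slc25a46, an outer membrane protein of mitochondrial shape, had 0.33 and 0.33 on the control arrays with a value against -0.60, -1.001 and -0.30; it fell by 0.96 (SE 0.21, adjusted p = 0.00833), and its second probe gave -0.14 and did not pass.

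Slc25a47, known from liver, Slc25a43 and Slc25a45 gave 0.42, 0.16 and -0.24 and did not pass, except Slc25a47 with the slide as a block (adjusted p = 0.0244), nor did Slc25a30, a relative of the uncoupling proteins (0.26). Slc25a35, Slc25a53 and Slc25a54 and the uncoupling protein relative Slc25a27 were at or near background and were not tested.

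**Figure D3:**
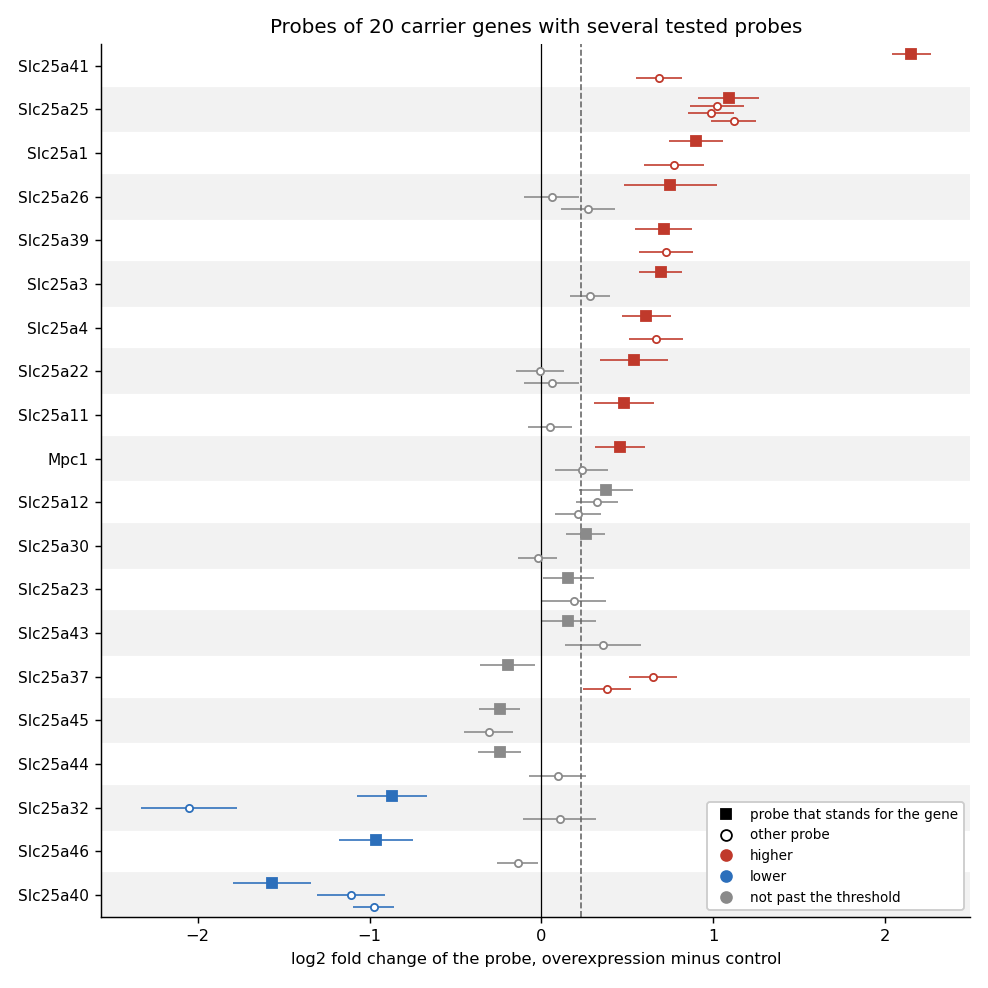
Log2 fold change, overexpression minus control, of each tested probe of 20 of the 21 members with several tested probes, with bars of 1 standard error. Squares are the brightest probe, which stood for the gene, open circles the others, and colours the call of a limma fit across 24558 probes; the probes of Slc25a25 lie between 0.99 and 1.12, those of Slc25a32 between -2.05 and 0.11, and the 2 other probes of Slc25a37 lie above 0 while its square lies at -0.20.

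Of the 70 probes tested in a fit across all probes, 25 were higher and 11 lower, 35.7% and 15.7% against 31.4% and 21.3% of all probes tested. Of the 21 members with several tested probes, 6 had all of them called in the same direction (Slc25a1, Slc25a4, Slc25a25, Slc25a39, Slc25a40 and Slc25a41), and 8 had probes that differed in call. The probes differed in sign in 5 members (Slc25a22, Slc25a30, Slc25a32, Slc25a37 and Slc25a44), but in no member did 1 probe rise and another fall past the threshold. Matching shares over all genes with several tested probes are not given here, so these counts show no trait of the carriers. The other 20 members rested on a single tested probe.

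The log2 fold changes of the members also differed with the brightness of their probes. At a mean scaled level of 2 or more there were 12 members with a median log2 fold change of 0.47, against 0.43 for the 2769 genes at that level, and 8 of the 12 (66.7%) were called higher, against 57.1% of those genes. With quantile normalization these medians were 0.06 and 0.00, and 1 of the 12 was called higher (Slc25a1), against 5.24% of the genes. Below a scaled level of -2 the 9 members had a median of -0.48, whereas the 6539 genes at that level had 0.45. At that level 4 members were lower (Slc25a15, Slc25a29, Slc25a32 and Slc25a40) and 1 was higher (Slc25a21) on either scaling. These were 44.4% and 11.1% of the 9 members, against 20.7% lower and 45.6% higher among the genes at that level, or 22.7% and 33.4% with quantile normalization. The level was a mean over all 6 arrays, so the overexpression values helped to place each gene in its class. Slc25a32 and Slc25a40 had control means of -1.63 and -1.77 and lay below -2 only through their fall. The shares by level are therefore not separate from the fold changes.

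**Figure D4:**
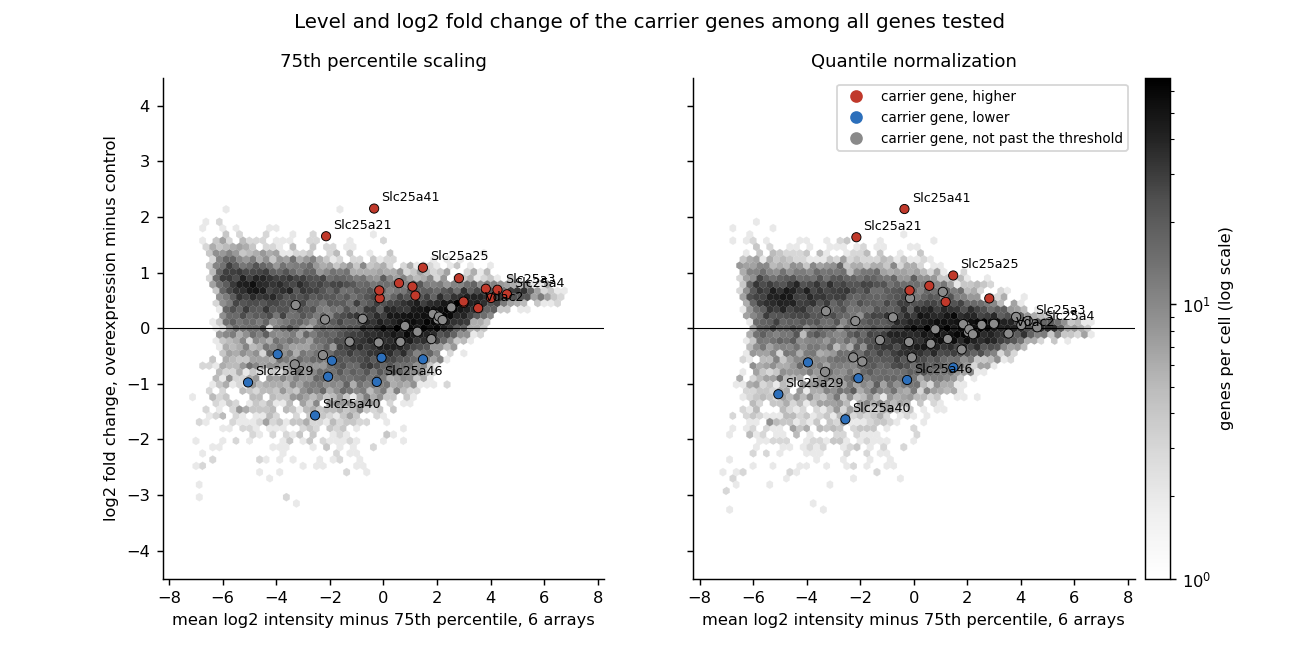
Log2 fold change, overexpression minus control, against the mean scaled level over the 6 arrays for all 17062 genes tested (grey, darker with more genes on a log scale) and for the 41 carrier genes (points coloured by call), with the 75th percentile scaling on the left and quantile normalization on the right. Bright members such as Slc25a3 (0.69 and 0.13) move to the zero line on the right, whereas Slc25a41, Slc25a21 and Slc25a40 keep their distance from it.

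Genes that work beside these carriers were compared in the same fit, and those named were picked after their values were seen. Of 28 other mitochondrial transporters and channels 26 were tested, with 7 higher and 5 lower, 26.9% and 19.2% against 36.9% and 19.6% of all genes. With quantile normalization these became 1 and 6, 3.85% and 23.1% against 21.7% and 20.9%, and the median of the list was 0.08 above that of all genes on the first scaling and 0.02 below it on the second. Both scalings called Mcub, the dominant-negative subunit of the calcium uniporter, higher (0.83 ± 0.15, limma adjusted p = 0.00272) and Slc25a14, an uncoupling protein of the same family, lower (-1.13 ± 0.13, adjusted p = 0.000507). Of 20 enzymes that make or use the carried solutes 19 were tested, with 10 higher and 1 lower, 52.6% and 5.26%. With quantile normalization 2 were higher and 1 lower, 10.5% and 5.26%, and the median of the list went from 0.17 above that of all genes to 0.12 below it. Citrate synthase (Cs) rose by 0.65 ± 0.13 (adjusted p = 0.00414) and had 0.19 after quantile normalization, whereas hexokinase 2 (Hk2) fell by 0.93 (SE 0.20, adjusted p = 0.00767) and had -0.98. The mitochondrial creatine kinase Ckmt1 was called higher on both scalings, at 0.88 ± 0.25 (adjusted p = 0.0165).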

How the data were processed

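Total RNA from BV2 cells treated with LPS was hybridised to 6 one-colour Agilent arrays, 3 per group. Groups and replicate numbers were taken from the sample titles, which do not name the slides. The labels name the dye Cy3 where the methods name Cy5. The authors' scanner software (Agilent Feature Extraction 11.5.1.1) gave the deposited intensity of each spot after background subtraction, not normalized between arrays. The authors also deposited log2 values of 42110 probes, normalized in GeneSpring by a procedure not given in the sources used here, with column medians of 8.293 or 8.294 and a correlation of 0.9988 or more with the own array across probes. Precision is limited by the number of arrays.

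Here log2 intensity minus the 75th percentile of the array was used, without outlier spots and with repeated spots averaged. Accessions were matched to RefSeq genes of GRCm38.p6 (33767 probes). The array design names mm9, so no coordinates were taken from it, and those of the promoter stretches are of GRCm38.p6. Testing required values on 2 arrays per group and a signal well above background on all 3 arrays of 1 group, and the brightest such probe represented a gene. The comparison used limma 3.58.1 (lmFit, eBayes; R 4.3.3) with two-sided p-values, adjusted by Benjamini-Hochberg over 17062 genes, and a threshold of 0.05, and a second fit covered all probes. The steps were tested on simulated data. Values on each array are given at least for Slc25a1, Slc25a3 to Slc25a5, Slc25a10 to Slc25a13, Slc25a28, Slc25a37, Slc25a39, the pyruvate carrier and Vdac genes and for the largest rise and fall past the threshold in each role group; other members are named at least with their log2 fold change, except 1 that is counted and not reported here. The members, lists and named genes were chosen with earlier results of these data known. Alternatives were other scalings, normexp (offset 50), other filters, the mean of probes, blocks for slide or replicate number, a variance trend, array weights, the authors' values, unmatched probes, a 2-fold threshold, each array left out and, added after seeing the data, outlier spots kept. Plots used Python 3.11.15 and matplotlib 3.10.9.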

Additional observations from a re-analysis of the deposited data

How the results depend on the processing

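The count of carriers called higher (16) was 7 with quantile normalization, with normexp and quantile normalization, with the authors' log2 values and with quantile normalization and outlier spots kept, 10 with the median as the scale and 3 with a 2-fold threshold. The count called lower (8) was 5 with normexp and the 75th percentile and 1 with a 2-fold threshold. When each array was left out, the counts ran from 10 to 14 higher and from 5 to 8 lower, and 14 of the 24 calls were kept each time. Those of Slc25a11, Slc25a15, Slc25a22, Slc25a24, Slc25a26, Slc25a34, Slc25a42, Mpc1, Vdac1 and Vdac2 were not. How many of the calls among all genes were kept each time is not given here. The median relative to all genes lay between -0.11 and 0.03, and between -0.05 and 0.07 with an array left out. Apart from quantile normalization, the shares of all genes under the alternatives of this section are not given here. The counts therefore show no trait of the carriers.

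Signs turned for Slc25a15 (0.017 with normexp and the 75th percentile), for Slc25a4 (-0.0015 with quantile normalization and outlier spots kept), for Vdac1 (-0.0050 with the authors' values, -0.0079 with quantile normalization and outlier spots kept) and for Vdac2 (-0.10 with quantile normalization, -0.035 with normexp and quantile normalization, -0.12 with the authors' values and -0.13 with quantile normalization and outlier spots kept); the cause was not tested. The replicate block gave 18 higher and 9 lower, adding Slc25a12, Slc25a16 and Slc25a47 and changing no other call of a member; same-numbered arrays had correlations of -0.16, 0.07 and 0.60 in their deviations from the group means, so the numbers were not taken as pairs. Among the called members with a mean scaled level below -2, Slc25a15 and Slc25a29 lost the call with normexp and the 75th percentile. Slc25a21, Slc25a32 and Slc25a40 kept theirs. Of the 50 members 9 could not be tested, Slc25a5 and Mpc2 among them because of outlier spots.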
